A study of Mus musculus with 6 samples.

Results

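The guanylate-binding proteins (GBPs) of the mouse hippocampus were examined after bilateral carotid artery stenosis (BCAS). The 10 genes Gbp2 to Gbp11 were matched by symbol to the Ensembl identifiers of the count tables. Each symbol had a single match, so the family made up 10 of the 54752 genes in the tables. By the chromosome column, Gbp5, Gbp7, Gbp3 and Gbp2 form a cluster of 4 genes on the plus strand of chromosome 3, and Gbp8, Gbp9, Gbp4, Gbp10, Gbp6 and Gbp11 form a cluster of 6 genes on the minus strand of chromosome 5. RNA was taken from the whole right hippocampus of wild-type C57BL/6 mice, male and of the C57BL/6 J substrain by the study's methods, that were labelled 14 weeks. In the BCAS group, microcoils were placed around both common carotid arteries, with the narrower coil on the right, and the sham group had the operation without coils. Tissue was taken 3 weeks after surgery. Each group held 3 biological replicates, counted here as 3 sham mice and 3 BCAS mice, and the libraries held 29652456 to 35607098 counted reads.

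GBPs are large GTPases of the dynamin superfamily whose transcription is strongly induced by interferons, above all by interferon gamma. They assemble on the vacuoles and the surfaces of intracellular microbes, break these compartments open and feed the released material to inflammasomes. In the brain they are made by microglia, infiltrating leukocytes, endothelium and astrocytes, and Gbp2 is widely used as a marker of reactive astrocytes. The genes arose by repeated duplication and lie in clusters.

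Most GBP genes were higher in BCAS mice compared with sham mice. Of the 10 members, all of which passed the filter on low counts, 8 were up-regulated differentially expressed genes (DEGs), against 8.47% of the 18617 genes tested. Of the members, 0 were down-regulated DEGs by edgeR, DESeq2 or limma-voom, against 0.999% of all tested genes by edgeR. With no fold threshold, 0 were lower at an adjusted p under 0.05 by edgeR, against 13.2% of all tested genes. At an unadjusted p under 0.05, 0 were lower. Shares of all tested genes at an unadjusted p are not given here or below. Genes counted as DEGs when edgeR's quasi-likelihood test gave an adjusted p under 0.05 and the fold change exceeded 1 on the log2 scale in size. The median log2 fold change of the 10 members was 1.96, and that of all tested genes was 0.018. For 9 of the 10 members, every BCAS mouse was above every sham mouse, which held for 25.3% of all tested genes. The 8 DEGs were all 4 genes of the chromosome 3 cluster and 4 of the 6 genes of the chromosome 5 cluster (Gbp6, Gbp8, Gbp9 and Gbp10). The other two members were Gbp4, which was higher in BCAS mice but missed the fold threshold, and Gbp11, whose groups overlapped. In whole tissue, more cells of a type and more RNA per cell cannot be told apart.

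Interferon-induced genes often carry the interferon-stimulated response element, in which GAAA occurs as a pair of copies with 2 bases of any kind between them (read from the other strand, TTTC with the same spacing), or the gamma-activated site, the palindrome TTCNNNGAA. Promoters are shown for the 4 genes of the chromosome 3 cluster, the only members for which a promoter was matched. The promoter windows run from 250 bases before to 50 bases after the transcription start in RefSeq (assembly GRCm38.p6, the assembly known as mm10), and 4 of the 10 members were matched (Gbp2, Gbp3, Gbp5 and Gbp7). Gbp4, Gbp6, Gbp8, Gbp9, Gbp10 and Gbp11 were not matched. Capitals mark the spaced GAAA pair, which on the strand shown reads as a spaced TTTC pair. The windows are chr3:142620413-142620712 for Gbp2, chr3:142559794-142560093 for the first of 2 starts of Gbp3, chr3:142496684-142496983 for Gbp5 and chr3:142530086-142530385 for Gbp7, all on the plus strand.
Gbp2: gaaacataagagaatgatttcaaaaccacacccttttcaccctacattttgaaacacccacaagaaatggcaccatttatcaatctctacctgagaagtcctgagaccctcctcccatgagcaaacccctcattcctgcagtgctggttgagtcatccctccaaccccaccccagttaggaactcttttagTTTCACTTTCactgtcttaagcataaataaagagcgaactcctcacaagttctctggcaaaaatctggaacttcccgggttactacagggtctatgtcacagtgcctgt
Gbp3: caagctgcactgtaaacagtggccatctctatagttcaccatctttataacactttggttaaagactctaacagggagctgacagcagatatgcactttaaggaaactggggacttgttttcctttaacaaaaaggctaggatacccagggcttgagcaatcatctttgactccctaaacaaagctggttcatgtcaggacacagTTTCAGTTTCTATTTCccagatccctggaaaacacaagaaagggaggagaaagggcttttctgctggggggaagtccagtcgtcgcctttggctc
Gbp5: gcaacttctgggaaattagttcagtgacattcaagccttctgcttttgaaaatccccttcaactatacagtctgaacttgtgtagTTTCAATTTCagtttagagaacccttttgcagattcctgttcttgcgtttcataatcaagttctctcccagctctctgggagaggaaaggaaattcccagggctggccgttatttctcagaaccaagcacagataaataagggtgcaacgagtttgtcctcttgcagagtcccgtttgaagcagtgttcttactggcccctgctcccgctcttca
Gbp7: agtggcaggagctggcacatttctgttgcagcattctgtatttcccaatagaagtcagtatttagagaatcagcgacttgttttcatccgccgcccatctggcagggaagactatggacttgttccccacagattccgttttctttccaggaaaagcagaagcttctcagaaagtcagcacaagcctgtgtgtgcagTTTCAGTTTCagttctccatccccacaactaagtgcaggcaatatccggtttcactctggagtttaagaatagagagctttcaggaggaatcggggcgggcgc

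All 4 genes held the spaced GAAA pair in a window. This motif was found on either strand in 1131 of 32851 mouse promoter windows of the same length (3.44%), or for 1079 of 27025 genes (3.99%). It lay 59 to 50 bases before the start of Gbp2 (TTTCACTTTC), 53 to 44 bases before that of Gbp7 (TTTCAGTTTC) and 165 to 156 bases before that of Gbp5 (TTTCAATTTC). Gbp3 held a pair of overlapping matches, TTTCAGTTTC at 45 to 36 bases and TTTCTATTTC at 39 to 30 bases before the start, and the window of its second start held no match. The palindrome TTCNNNGAA occurred in 2726 of all windows (8.30%). It was present as 2 matches in Gbp5, TTCTGGGAA at 245 to 237 bases and TTCTCAGAA at 52 to 44 bases before the start, and as 2 matches in Gbp7, TTCCAGGAA at 106 to 98 bases and TTCTCAGAA at 87 to 79 bases. Those letters were not found in the windows of Gbp2 and Gbp3, and none of these matches overlapped the marked letters. The starts used for Gbp5, Gbp2 and Gbp3 lie inside the genes as the count tables draw them, downstream of their first base. The marked letters of Gbp2 and Gbp5 also fall inside these genes as drawn, while those of Gbp3 do not. These matches describe the sequence only, and binding at them was not measured.

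The chromosome 3 cluster spans chr3:142493978-142638008 in mm10. Levels are given as CPM, counts per 1000000 counted reads after TMM scaling, for mice 1, 2 and 3 of a group in that order. Gbp3 (ENSMUSG00000028268.14, chr3:142560026-142573209), from a locus whose loss impairs inflammasome responses to bacteria, had 5.46, 4.998 and 4.31 CPM in sham mice and 30.3, 25.8 and 37.2 CPM in BCAS mice. The lowest BCAS mouse was far above the highest sham mouse. Its log2 fold change was 2.66 (SE 0.16, adjusted p = 2.01e-05 by edgeR), and it had the smallest adjusted p of the 10 members. Gbp2 (ENSMUSG00000028270.12, chr3:142620602-142638008), which carries a lipid-modified tail that anchors it in membranes, had 5.90, 3.83 and 4.72 CPM in sham mice and 23.2, 19.4 and 37.8 CPM in BCAS mice. BCAS mouse 3 stood above the other two, but the groups did not overlap, and the log2 fold change was 2.47 (SE 0.27, adjusted p = 0.000228 by edgeR).

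Gbp5 (ENSMUSG00000105504.4, chr3:142493978-142522344), likewise lipid-anchored and known to promote assembly of the NLRP3 inflammasome, had 3.10, 2.99 and 2.62 CPM in sham mice and 15.1, 10.3 and 17.8 CPM in BCAS mice. The sham mice were close together, with a coefficient of variation of 8.58%, the lowest of the family. Its log2 fold change was 2.31 (SE 0.21, adjusted p = 0.000111 by edgeR). Gbp7 (ENSMUSG00000040253.15, chr3:142530342-142550149), linked to assembly of the phagocyte NADPH oxidase, had 6.52, 5.51 and 5.57 CPM in sham mice and 14.9, 14.9 and 22.7 CPM in BCAS mice. The groups did not overlap, and the log2 fold change of 1.58 (SE 0.19, adjusted p = 0.000433 by edgeR) was the smallest of the cluster. All 4 genes stayed DEGs under every alternative setting and with each library left out in turn.

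Gbp2b lies between Gbp3 and Gbp2 in the same cluster and is the gene of mouse guanylate-binding protein 1. It was nearly silent here, with 0, 4 and 0 reads in sham mice and 0, 2 and 1 reads in BCAS mice, and was not tested. Its promoter window also held the spaced GAAA pair, at 137 to 128 bases before the start (TTTCACTTTC). The pseudogene Gbp2-ps had 0 reads in every library, and the upper limit that a count of 0 allows, 3 fragments or 6 reads where both mates were counted, corresponded to 0.175 to 0.199 CPM in the 6 libraries. This limit covers counting error only.

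**Figure D1:**
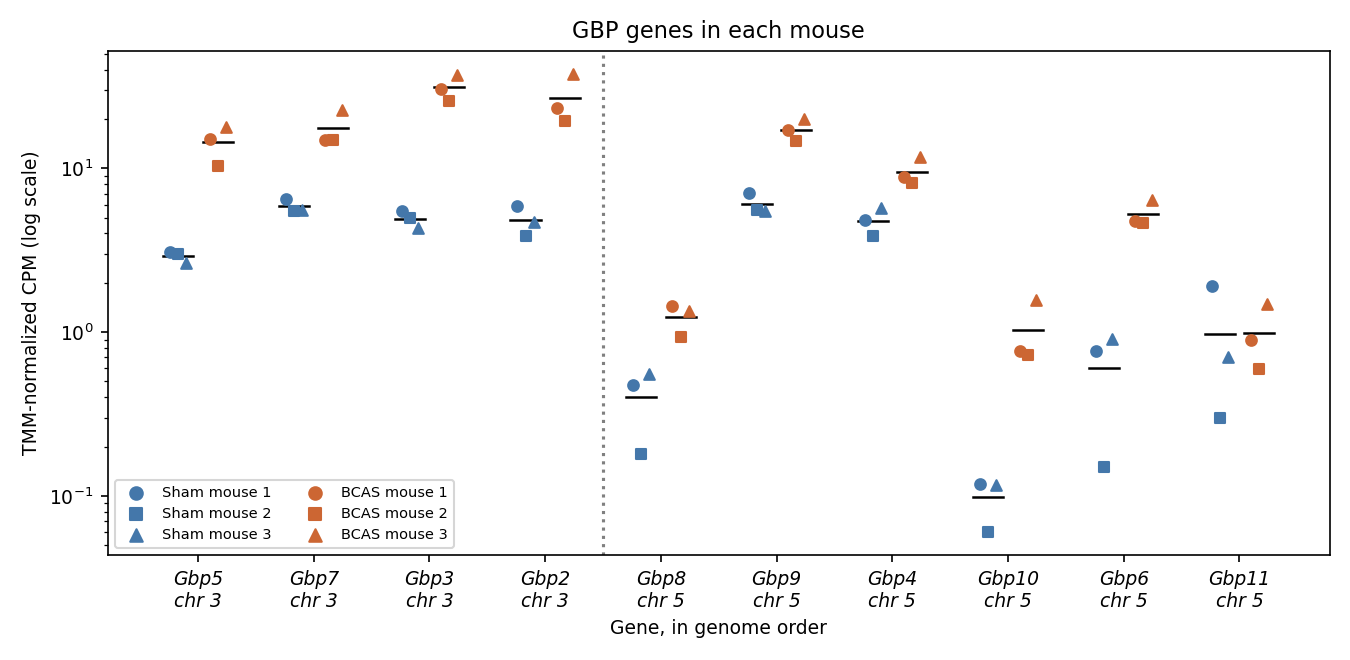
TMM-normalized CPM of the 10 GBP genes in each mouse, on a log axis, in genome order with the chromosome 3 cluster left of the dotted line. Points are mice, with the shape giving the mouse number, and bars are group means. Only Gbp11 had overlapping groups. Sham mouse 2 was the lowest sham mouse for 5 of the 6 chromosome 5 genes, with only 5, 6 and 2 reads for Gbp6, Gbp8 and Gbp10.

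The chromosome 5 cluster spans chr5:105014150-105346472 and ranged from the largest fold change of the family to the smallest. Gbp9 (ENSMUSG00000029298.15, chr5:105077630-105139539), which is recruited to parasite vacuoles, had the highest CPM of this cluster. Its values were 7.05, 5.54 and 5.48 CPM in sham mice and 17.2, 14.6 and 19.8 CPM in BCAS mice. The groups did not overlap, and the log2 fold change was 1.51 (SE 0.16, adjusted p = 0.000225 by edgeR). Gbp4 (ENSMUSG00000079363.7, chr5:105115767-105139586), described as a negative regulator of the interferon factor IRF7, had 4.81, 3.86 and 5.71 CPM in sham mice and 8.80, 8.12 and 11.7 CPM in BCAS mice. Every BCAS mouse was above every sham mouse, and the log2 fold change was 0.99 (SE 0.20, adjusted p = 0.00661 by edgeR), just under the fold threshold of 1. Gbp4 passed that threshold with library totals in place of TMM scaling and without sham mouse 3, BCAS mouse 1 or BCAS mouse 2, at log2 fold changes of 1.07, 1.13, 1.04 and 1.09.

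Gbp6 and Gbp10 had the largest fitted fold changes of the family from low levels in sham mice. Gbp6 (ENSMUSG00000104713.4, chr5:105270702-105293698) had 0.767, 0.150 and 0.904 CPM in sham mice and 4.74, 4.64 and 6.38 CPM in BCAS mice. The BCAS mice were close together while sham mouse 2 was well below the other sham mice. The log2 fold change was 3.10 (SE 0.47, adjusted p = 0.00156 by edgeR), and it was 2.64 without sham mouse 2. Gbp10 (ENSMUSG00000105096.1, chr5:105215699-105239533) was covered by only 4, 2 and 4 reads in sham mice and by 25, 22 and 49 reads in BCAS mice. These reads corresponded to 0.118, 0.0599 and 0.117 CPM in sham mice and to 0.769, 0.729 and 1.57 CPM in BCAS mice. The sham values were all under the limit of 6 reads. The fitted log2 fold change was 3.33 (SE 0.54, adjusted p = 0.00224 by edgeR). With 6 reads per sham library as the floor, the mean of the BCAS mice was 5.77 times the floor, or 2.53 on the log2 scale.

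Counts of Gbp6 and Gbp10 covered only part of each gene. The gene model Gm43302 overlaps both on the same strand, sharing 1792 exonic bases with Gbp10 (46.3% of its exonic length) and 1726 with Gbp6 (29.0%), and reads that fell on exons of 2 genes were left unassigned by the authors' counting. Gm43302 itself had 0 reads in 5 libraries and 2 reads in BCAS mouse 1. Of all 150-base windows of the annotated transcripts, 59.1% for Gbp6 and 66.6% for Gbp10 also occurred in the transcripts of another gene. Gbp6 and Gbp10 shared 1852 such windows, so their values rest on the remaining sequence and the split between them is uncertain. For Gbp7, 8.77% of windows were shared with the overlapping model Gm43802, for Gbp4 and Gbp11 2 windows were shared, and for Gbp2, Gbp3, Gbp5, Gbp8 and Gbp9 none was. The overlapping models of Gbp4, Gbp8 and Gbp9 share only 60 to 61 exonic bases with each other.

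Gbp8 (ENSMUSG00000034438.16, chr5:105014150-105139540) was expressed at a low level, with 0.472, 0.180 and 0.554 CPM in sham mice and 1.45, 0.928 and 1.35 CPM in BCAS mice. Every BCAS mouse was above every sham mouse, and the log2 fold change was 1.62 (SE 0.45, adjusted p = 0.0251 by edgeR). This call was the least firm of the 8. It was lost without sham mouse 1, sham mouse 2, BCAS mouse 1 or BCAS mouse 3. In these fits edgeR gave adjusted p of 0.0643, 0.0657, 0.0737 and 0.0714, at log2 fold changes of 1.74, 1.27, 1.49 and 1.55. Over all 15 alternatives the adjusted p ran from 0.0110 to 0.519. Gbp11 (ENSMUSG00000092021.8, chr5:105323042-105346472), annotated as a polymorphic pseudogene, had 1.92, 0.299 and 0.700 CPM in sham mice and 0.893, 0.597 and 1.47 CPM in BCAS mice. The highest single value was that of sham mouse 1, and the groups overlapped. Its log2 fold change was 0.023 (SE 0.63, adjusted p = 0.983 by edgeR), so a change of 1 on the log2 scale in either direction lies within 2 SE of it. Without sham mouse 1 it was 0.97 (adjusted p = 0.269 by edgeR). Without sham mouse 2, sham mouse 3 or BCAS mouse 3 the sign turned, at -0.40, -0.17 and -0.39, and over all 15 alternatives the adjusted p ran from 0.269 to 1.

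The order of the mice within a group was much alike from member to member. BCAS mouse 3 had the highest value of the BCAS group for 9 of the 10 members, the exception being Gbp8, and BCAS mouse 2 had the lowest value for all 10. BCAS mouse 3 was also the highest BCAS mouse for 83.2% of all 1576 up-regulated DEGs and for all 10 microglia markers, against 34.3% of all tested genes, and it was the library least correlated with the sham libraries (Pearson's r of 0.935 to 0.940 across genes). BCAS mouse 2 was the lowest for 40.5% of the up-regulated DEGs and 34.8% of all tested genes. Among cell type markers, that mouse was the lowest for 3 of the 10 microglia markers and 7 of the 8 endothelial markers. Sham mouse 2 had the lowest sham value for 7 of the 10 members, against 32.3% of all tested genes, namely 5 of the 6 chromosome 5 genes and 2 of the 4 chromosome 3 genes. For Gbp6, Gbp8 and Gbp10 that mouse had only 5, 6 and 2 reads, at or under the limit of 6, so its place is uncertain for these genes. Coefficients of variation among sham mice were 8.58 to 21.6% on chromosome 3 and 14.8 to 86.7% on chromosome 5, the highest being that of Gbp11. The log2 fold changes of the other members with a library left out ranged from 2.50 to 2.77 for Gbp3, 2.14 to 2.65 for Gbp2, 2.12 to 2.49 for Gbp5, 1.34 to 1.68 for Gbp7, 1.39 to 1.64 for Gbp9 and 2.88 to 3.51 for Gbp10.

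**Figure D2:**
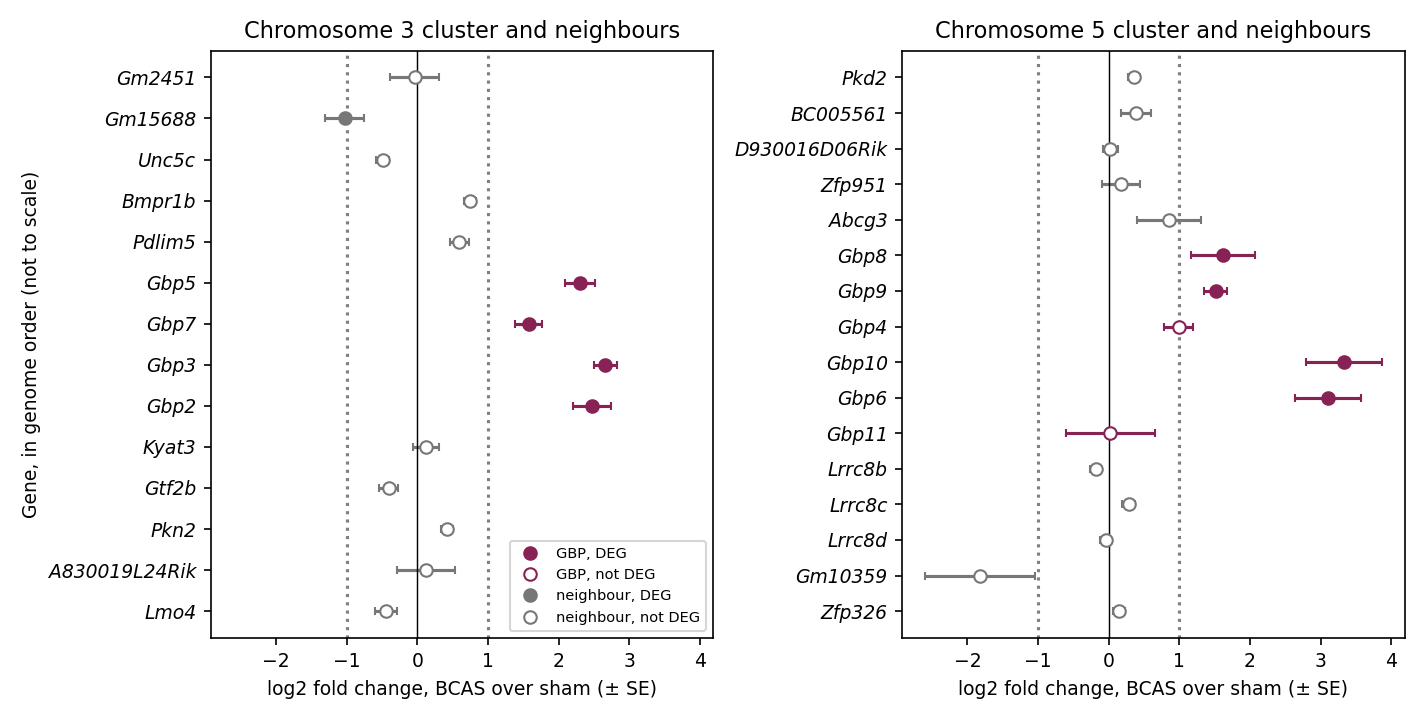
log2 fold change (BCAS over sham, bars are SE) of the GBP genes and of the 5 nearest tested genes on each side of both clusters, in genome order and not to scale. Filled points are DEGs and dotted lines mark a log2 fold change of 1 in either direction. The 8 GBP genes that were DEGs lie to the right of every neighbour shown, Gbp4 lies close to Abcg3, and Gbp11 lies at 0.023.

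The genes beside the clusters were examined by the same criteria. Of the 20 nearest tested genes that are not GBPs, 5 on each side of each cluster, 0 were up-regulated DEGs by edgeR, DESeq2 or limma-voom, and 1 was a down-regulated DEG, against 8.47% and 0.999% of all tested genes by edgeR. By edgeR 5 of the 20 were higher and 6 were lower at an unadjusted p under 0.05. At an adjusted p under 0.05, 5 were higher and 2 were lower, against 18% and 13.2% of all tested genes. Bmpr1b, a bone morphogenetic protein receptor gene on chromosome 3, had the largest of these rises, named here after its value was seen, at a log2 fold change of 0.74 (SE 0.085). The median log2 fold change of the neighbours was 0.040 on chromosome 3 and 0.16 on chromosome 5. The down-regulated neighbour was the gene model Gm15688, 1029 kb from the chromosome 3 cluster, with 2.80 ± 0.523 CPM in sham mice and 1.37 ± 0.315 CPM in BCAS mice (SD, n = 3, log2 fold change -1.03, SE 0.27, adjusted p = 0.0204 by edgeR). Kyat3, a kynurenine aminotransferase gene 63.0 kb beyond Gbp2, had a log2 fold change of 0.12 (SE 0.18). Abcg3, a transporter gene 31.4 kb from Gbp8, had a log2 fold change of 0.86 (SE 0.45, adjusted p = 0.183 by edgeR).

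Levels of different genes were compared per length, as TMM-normalized CPM per kilobase of exon (RPKM). In sham mice the highest levels were those of Gbp2 (1.92 ± 0.413 RPKM, SD, n = 3 here and below), Gbp3 (1.51 ± 0.176), Gbp9 (1.16 ± 0.172) and Gbp7 (1.04 ± 0.101). They were followed by Gbp4 (0.640 ± 0.124), Gbp5 (0.438 ± 0.0376), Gbp11 (0.361 ± 0.313), Gbp8 (0.117 ± 0.0572), Gbp6 (0.102 ± 0.0675) and Gbp10 (0.0253 ± 0.00857). Only between Gbp7 and Gbp4 and between Gbp4 and Gbp5 were neighbours in this order without overlap between mice. In BCAS mice Gbp2 (10.6 ± 3.86 RPKM) and Gbp3 (9.53 ± 1.77 RPKM) overlapped each other and stood apart from all other members. The next genes were Gbp9 (3.33 ± 0.505 RPKM), Gbp7 (3.12 ± 0.801 RPKM), Gbp5 (2.17 ± 0.569 RPKM), Gbp4 (1.27 ± 0.254 RPKM) and Gbp6 (0.882 ± 0.164 RPKM). Gbp11 (0.367 ± 0.166 RPKM), Gbp8 (0.360 ± 0.0799 RPKM) and Gbp10 (0.264 ± 0.123 RPKM) were lowest and overlapped in turn. Gbp5 and Gbp4 exchanged places between the groups, and so did Gbp6 with Gbp11 and Gbp8. With only the exonic bases that no other gene shares as the length, Gbp6 (0.144 RPKM) already stood above Gbp8 (0.119 RPKM) in sham mice, so that these 2 genes did not exchange places. By that length Gbp10 had 0.492 RPKM in BCAS mice and stood above Gbp11 and Gbp8, and Gbp7 (3.52 RPKM) stood above Gbp9 (3.37 RPKM).

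The summed level of the family was 8.66, 6.28 and 7.01 RPKM in sham mice and 29.7, 25.2 and 40.9 RPKM in BCAS mice. The lowest BCAS mouse was well above the highest sham mouse, and the ratio of the group means was 4.37. Gbp2 and Gbp3 took a larger part of this sum in BCAS mice, 32.8 and 30.2%, than in sham mice, 26.04 and 20.9%. Smaller parts than in sham mice fell to Gbp9 (10.6% in BCAS mice against 16.0%), Gbp7 (9.79 against 14.4%) and Gbp4 (4.03 against 8.83%). Gbp11 took 8.23, 1.77 and 3.71% of the sum in sham mice and 1.12, 0.881 and 1.34% in BCAS mice, with sham mouse 1 far above the other sham mice. Of the chromosome 5 genes, Gbp6 (2.80 against 1.35%) also took a larger part in BCAS mice. The groups did not overlap in any of these parts, whereas they overlapped for Gbp5 and Gbp8. The part of Gbp10 was 0.669 to 0.991% in BCAS mice and cannot be set against sham mice, whose Gbp10 reads were all under the limit of 6.

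**Figure D3:**
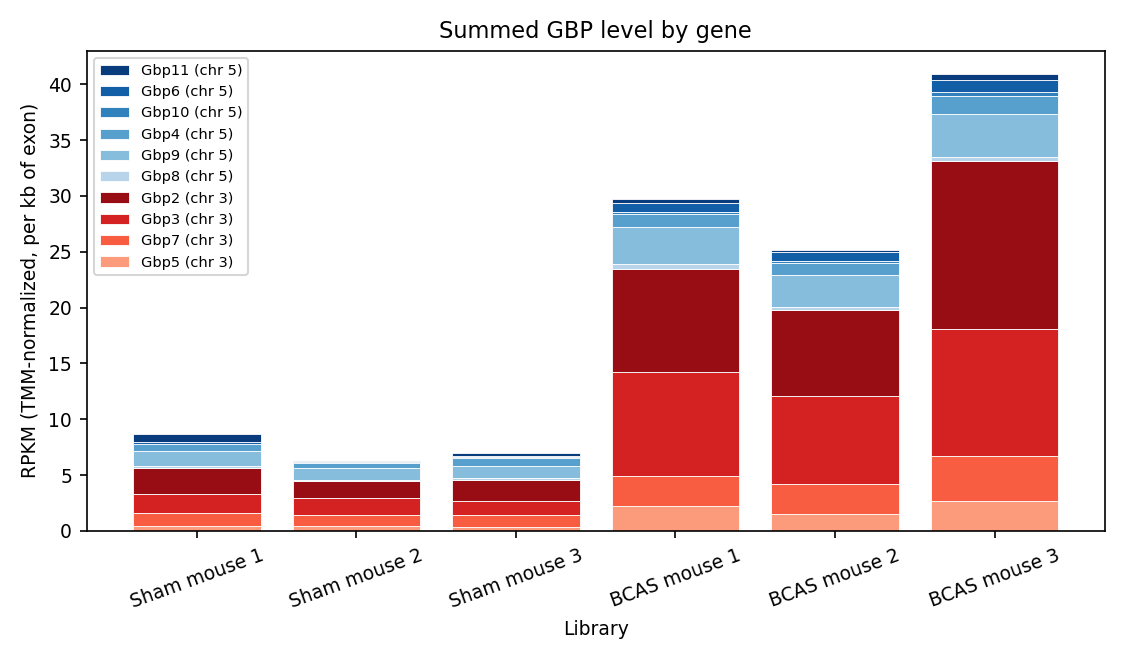
Summed RPKM of the GBP genes in each library, stacked by gene, with the chromosome 3 genes in reds at the base and the chromosome 5 genes in blues above. The totals are 6.28 to 8.66 RPKM in sham mice and 25.2 to 40.9 RPKM in BCAS mice, and most of the height in BCAS mice comes from Gbp2 and Gbp3.

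The chromosome 3 and chromosome 5 clusters were set side by side. The chromosome 3 genes summed to 5.65, 4.49 and 4.59 RPKM in sham mice and to 23.4, 19.8 and 33.1 RPKM in BCAS mice, a ratio of group means of 5.19. The chromosome 5 genes summed to 3.01, 1.79 and 2.42 RPKM in sham mice and to 6.24, 5.37 and 7.81 RPKM in BCAS mice, a ratio of 2.69. Both clusters were higher in every BCAS mouse than in every sham mouse. The chromosome 3 cluster made up 65.2, 71.5 and 65.4% of the family RPKM in sham mice and 79.0, 78.7 and 80.9% in BCAS mice, and these groups did not overlap.

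A mean over members, which gives each gene the same weight, separated the clusters less clearly. The mean log2 CPM of the chromosome 5 genes minus that of the chromosome 3 genes was -1.95, -2.82 and -1.85 in sham mice and -2.69, -2.70 and -2.72 in BCAS mice. Sham mouse 2 was below all BCAS mice, so the groups overlapped. In that mouse Gbp6, Gbp8 and Gbp10 had 5, 6 and 2 reads, at or under the limit of 6, so its value rests partly on such counts. The difference changed by -0.50 from sham to BCAS, with a pooled SD of 0.38 between mice. It was -0.81 without sham mouse 2, and -0.21 with Gbp11 left out of the chromosome 5 cluster. The median log2 fold change was 2.39 over the 4 chromosome 3 genes, which ranged from 1.58 to 2.66, and 1.57 over the 6 chromosome 5 genes, which ranged from 0.023 to 3.33. Members of a cluster share sequence and position and are not replicates, so no test was run over them.

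The clusters also differed in how alike their genes are. The coding sequences of the chromosome 5 genes, from 1326 bases in Gbp11 to 1893 bases in Gbp4, were 88.9 to 98.4% identical over their 15 pairs, with a median of 91.7%. The most alike pair was Gbp6 and Gbp10, at 98.4%. The chromosome 3 genes, Gbp2b included, were 56.5 to 82.5% identical over 10 pairs, with a median of 59.5%. The most alike pairs there were Gbp2 with Gbp2b (82.5%) and Gbp3 with Gbp7 (78.1%). Across the clusters the identity was 58.2 to 76.3%, with a median of 61.6% over 30 pairs. Gbp3 was 70.1 to 76.3% identical to the chromosome 5 genes, while Gbp2 was 59.6 to 63.2% and Gbp5 was 58.2 to 61.8% identical to them. Thus Gbp3 and Gbp7 resembled the chromosome 5 genes more than they resembled Gbp2 or Gbp5, their neighbours on chromosome 3.

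**Figure D4:**
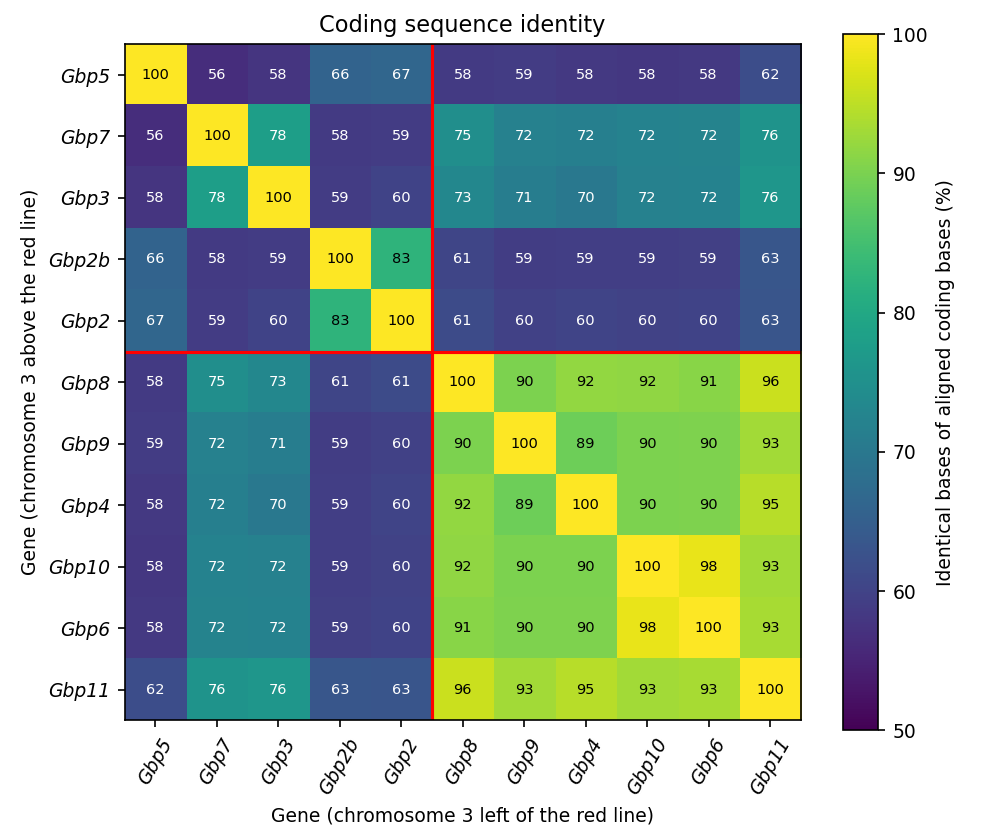
Percent identity between the longest coding sequences of the GBP genes, by pairwise alignment, with the chromosome 3 genes above and left of the red lines. The chromosome 5 block lies at 88.9 to 98.4%, and Gbp3 and Gbp7 are nearer to that block than Gbp2, Gbp2b and Gbp5 are.

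Genes of the pathway that induces GBPs were partly up-regulated. Of 16 genes from interferons and their receptors to STAT and IRF factors, 14 were tested and 7 were up-regulated DEGs by edgeR (8.47% of all tested genes), with a median log2 fold change of 0.98. With no fold threshold, 12 of the 14 were higher at an adjusted p under 0.05, as were 18% of all tested genes. Irf1, an interferon-induced factor that in turn drives GBP genes, had a log2 fold change of 1.34 (SE 0.14, adjusted p = 0.000184 by edgeR), and Irf9, part of the type I interferon complex, had one of 1.898 (SE 0.16, adjusted p = 5.99e-05 by edgeR). Irf8, a factor of microglia and other myeloid cells, had the largest change of the list, from 5.51 ± 0.901 to 89.0 ± 27.1 CPM (SD, n = 3, log2 fold change 4.01, SE 0.23, adjusted p = 1.60e-05 by edgeR).

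The 3 most abundant genes of that list were not DEGs. The kinase gene Jak1 had a log2 fold change of -0.13 (adjusted p = 0.182 by edgeR), the receptor gene Ifngr2 had one of -0.081 (adjusted p = 0.466 by edgeR), and the receptor gene Ifnar1 had one of 0.41 (adjusted p = 0.00890 by edgeR). Transcripts of the 2 interferons in the list were under the limit of 6 reads. Ifng had 0 reads in every sham mouse and 2, 2 and 0 reads in BCAS mice, and Ifnb1 had 0 reads in 5 libraries and 2 reads in BCAS mouse 3. At this depth no difference in either could be measured.

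Immunity-related GTPases, which act with GBPs on vacuoles, were mostly up-regulated. Of 11 listed symbols 7 were found and tested, and 6 were up-regulated DEGs by edgeR (8.47% of all tested genes), with a median log2 fold change of 2.03. Irgm1, Irgm2 and Igtp, regulators that keep GBPs off the cell's own membranes, had log2 fold changes of 2.08, 1.98 and 2.03 (SE 0.15, 0.18 and 0.23). Tgtp1 had 1.26 (SE 0.49, adjusted p = 0.0802 by edgeR), and DESeq2 and limma-voom called all 7. In the inflammasome list, whose products act downstream of GBPs, 8 of 9 genes were up-regulated DEGs by edgeR and 7 by limma-voom, against 1576 and 1556 of the 18617 tested genes, and the median log2 fold change was 2.38. The adaptor gene Pycard had a log2 fold change of 2.97 (SE 0.22) and the DNA sensor gene Aim2 had one of 1.81 (SE 0.15), while the cytokine gene Il18 had one of 0.20 (SE 0.12, adjusted p = 0.257 by edgeR).

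Genes that handle GBP proteins were counted in the same way, beside 8.47% up-regulated and 0.999% down-regulated DEGs among all tested genes. Of 6 genes for prenylation, the lipid modification of Gbp2 and Gbp5, 0 were DEGs by edgeR, DESeq2 or limma-voom, and the median log2 fold change was 0.10. By edgeR 3 were higher and 1 was lower at an unadjusted p under 0.05, and 1 was higher at an adjusted p under 0.05 (18% of all tested genes). That gene was Zmpste24, a protease that trims prenylated proteins, with a log2 fold change of 0.46 (SE 0.098, adjusted p = 0.00823 by edgeR). Icmt and Fnta had values of -0.041 and 0.25. Of 10 genes for the ATG8 conjugation system, which helps to bring GBPs to vacuoles, 0 were DEGs by edgeR, DESeq2 or limma-voom, 2 were higher and 2 were lower at an adjusted and at an unadjusted p under 0.05 by edgeR (18% and 13.2% of all tested genes at the adjusted p), and the median was -0.082. The most abundant, Gabarapl1, had a log2 fold change of -0.51 (SE 0.12, adjusted p = 0.0124 by edgeR), and Map1lc3b and Map1lc3a had values of 0.026 and -0.19.

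Markers of several cell types that can make GBPs also differed between the groups. All 10 microglia markers were up-regulated DEGs by edgeR (8.47% of all tested genes), with a median log2 fold change of 2.87, and their summed level was 345 to 358 CPM in sham mice and 2093 to 3335 CPM in BCAS mice. Csf1r and C1qa, among the most abundant, had log2 fold changes of 2.58 and 3.95. The GBP genes summed to 27.4 to 36.1 CPM in sham mice and 99.99 to 157.8 CPM in BCAS mice. Set against the microglia list in the same library, the GBP sum was 10.1, 7.94 and 8.78% of it in sham mice and 5.61, 4.49 and 4.73% in BCAS mice. The microglia list thus rose by more than the GBP sum, and no marker of it was at 0 in any library.

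Most markers of other immune cells rose from low levels. Of 9 markers of other myeloid cells, 8 were tested and 6 were up-regulated DEGs by edgeR (8.47% of all tested genes), and their sum was 7.45 to 12.2 CPM in sham mice and 28.3 to 41.3 CPM in BCAS mice. The macrophage genes Mrc1, F13a1 and Ms4a7 had log2 fold changes of 1.30, 1.37 and 4.09, and Lyve1 and S100a9 had values of 0.14 and 1.25 (adjusted p = 0.825 and 0.202 by edgeR). Ly6c2 had at most 1 read in any sham mouse, and its mean in BCAS mice was 11.2 times a floor of 6 reads per sham library. Of 10 lymphocyte markers, 8 were tested and 7 were up-regulated DEGs by edgeR, beside the same 8.47%, with a sum of 1.15 to 2.10 CPM in sham mice and 9.79 to 10.5 CPM in BCAS mice. Trac and Cd4 had log2 fold changes of 1.53 and 2.30, and Cd79a had one of 0.85 (adjusted p = 0.332 by edgeR). Cd3d, Cd8a and Nkg7, defining genes of T cells and of cytotoxic cells, were at or under the floor of 6 reads in every sham mouse. Their means in BCAS mice were 4.46, 12.3 and 6.24 times that floor.

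Resident cells of the hippocampus differed among themselves. Of 8 astrocyte markers, 3 were up-regulated DEGs by edgeR and 2 by DESeq2 (by edgeR, Gfap at 3.29, Aqp4 at 1.67 and S100b at 1.01 on the log2 scale), and 7 were higher at an adjusted p under 0.05 by edgeR, while Slc1a2 and Aldoc had log2 fold changes of 0.41 and 0.26, and their sum was 4479 to 4759 CPM in sham mice and 9554 to 10077 CPM in BCAS mice. Among all tested genes 8.47% were up-regulated DEGs and 18% were higher at an adjusted p under 0.05. Of 8 endothelial markers, 0 were DEGs by edgeR, DESeq2 or limma-voom, and by edgeR 6 were higher at an unadjusted and 5 at an adjusted p under 0.05, with Flt1, Slco1a4 and Cldn5 at 0.60, 0.41 and 0.32 and a sum of 288 to 308 CPM in sham mice and 376 to 425 CPM in BCAS mice. Of 10 markers of hippocampal neurons, 4 were down-regulated DEGs and 8 were lower at an adjusted p under 0.05 by edgeR, against 0.999% and 13.2% of all tested genes, and the summed level of the 10 was 6316 to 6582 CPM in sham mice and 3090 to 4356 CPM in BCAS mice. Camk2a, Snap25 and Rbfox3 had log2 fold changes of -0.70, -0.70 and -0.61, and the pyramidal cell genes Fibcd1 and Neurod6 and the dentate granule cell gene Dsp had values of -1.91, -1.56 and -1.31. Prox1, another dentate granule cell gene, and Wfs1, a CA1 gene, had log2 fold changes of -0.14 and -0.30 and did not pass the test (adjusted p = 0.699 and 0.159 by edgeR). All 10 neuronal markers were detected in every library, including markers of CA1 and of the dentate gyrus, as for hippocampal tissue. The part that these shifts in cell type markers play in the GBP differences was not tested.

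**Figure D5:**
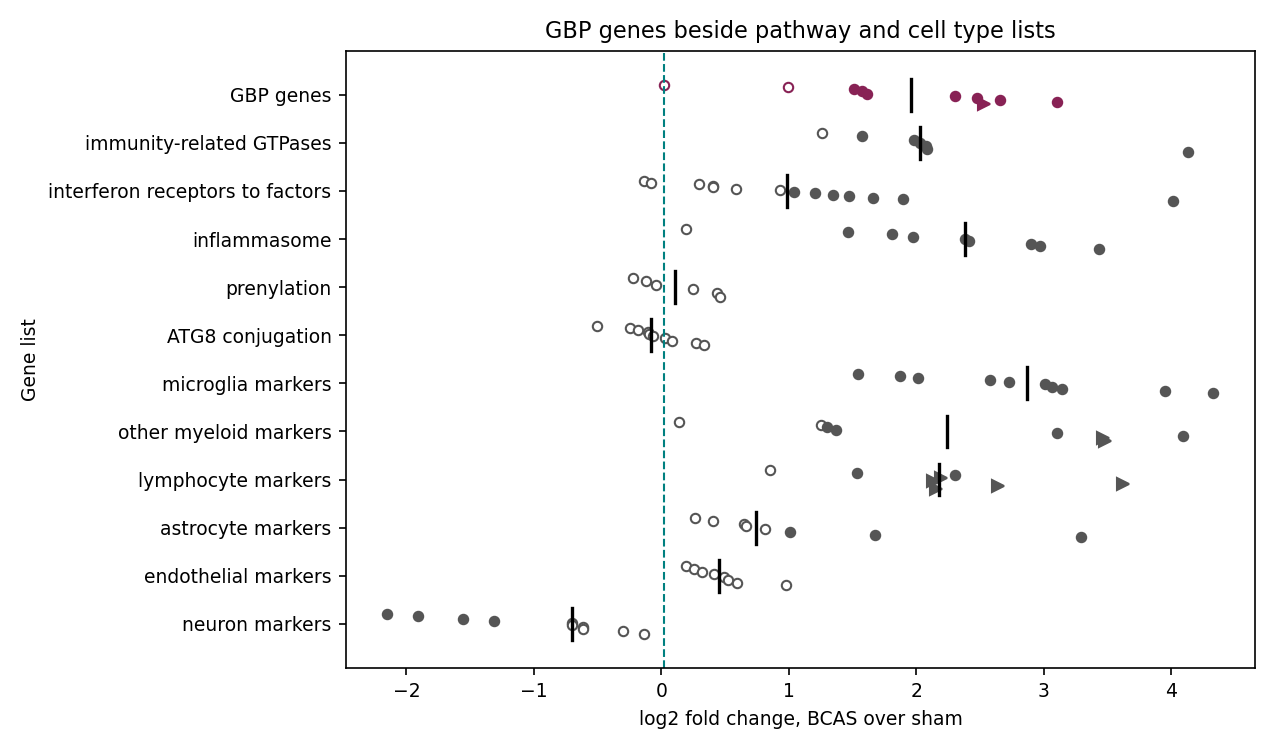
log2 fold change (BCAS over sham) of each tested gene in the GBP family, the pathway lists and the cell type lists, with list medians as black bars and the median of all tested genes as a dashed line. Filled points are DEGs. Triangles are genes at the floor in every sham mouse, Gbp10 among them, drawn at the mean of the BCAS mice over that floor. The GBP median of 1.96 lies near that of the immunity-related GTPases (2.03) and below that of the microglia markers (2.87).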

How the data were processed

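Total RNA of 6 libraries was sequenced as paired 150-base reads. Per the labels and the study's methods, the authors trimmed reads with Trim Galore, aligned them to mm10 with HISAT2, sorted them with SAMtools 1.9 and counted them with featureCounts, version 1.6.3 by the methods and 2.0.3 by the file headers. The deposited count tables hold raw counts per gene for a GENCODE vM20 annotation per the file headers. The counter treated the 2 mates of a fragment singly and used no strand option, and it left out reads that matched several genes or places, which lowers the counts of near-identical genes.

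The members and lists were chosen with earlier results of these data known. Of 54752 genes, 54723 had a symbol and 18617 passed edgeR's filterByExpr. BCAS and sham mice were compared with edgeR 4.0.16 (R 4.3.3, TMM scaling, quasi-likelihood test, Benjamini-Hochberg adjustment over all tested genes, no covariates). This comparison was also run on simulated data, and the outcome is not given here. The study used DESeq2, run here (1.42.0) as an alternative beside limma-voom (limma 3.58.1). SE is the absolute log2 fold change over the square root of F. Mean log2 CPM used a prior count of 2, and RPKM used the exonic length in the tables. Coding sequences and transcripts came from GENCODE vM21, and pairs were aligned with MAFFT 7.526. Genes named were all members, other Gbp symbols, the 3 most abundant genes of each list with up to 3 that differed from the list's majority, 6 interferon pathway genes fixed by name, and neighbours that were DEGs, while Bmpr1b, Kyat3, Abcg3, Ly6c2, Cd3d, Nkg7, Prox1, Wfs1 and the overlapping gene models were chosen after their values were seen. Of the genes this rule names, 2 are not reported here. Alternatives are given in the closing section, and p-values cover only the spread between these mice.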

Additional observations from a re-analysis of the deposited data

How the results depend on the processing

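The count of up-regulated GBP genes was 7 to 9 over 16 alternatives (8 as reported), that of the chromosome 3 cluster was 4 in all of them, and that of the chromosome 5 cluster was 3 to 5 (4 as reported). These alternatives were RLE scaling, library totals, both other filters on low counts, DESeq2, limma-voom, a test against a log2 fold change of 1, halved counts, no fold threshold, a replicate block and each library left out. Of 150 fold changes of the 10 members under the 15 alternatives that keep the fold threshold, 138 kept direction and call. Gbp4 passed the fold threshold with library totals (1.07) and in 3 fits with a library left out. Gbp8 lost its call in the test against a log2 fold change of 1 (adjusted p = 0.519 by edgeR) and in 4 fits with a library left out. Its log2 fold change ran from 1.27 to 1.91 with a library left out. Gbp11 reversed without sham mouse 2 (-0.40), sham mouse 3 (-0.17) and BCAS mouse 3 (-0.39), and reached 0.97 without sham mouse 1. The cause was not tested. Library totals moved the median log2 fold change of all genes from 0.018 to 0.095. DEGs over all genes numbered 1210 up and 96 down without BCAS mouse 3 and 804 up and 14 down in the test against a log2 fold change of 1, against 1576 and 186. The difference in mean log2 CPM between the clusters changed by -0.21 to -0.50 over 5 other settings and by -0.81 to -0.32 with a library left out. Leaving out Gbp11 and using the length without shared exons were choices added after the data were seen. With the replicate number as a block the counts were 8, 4 and 4 (Gbp8 adjusted p = 0.0298 by edgeR), and no member changed its call. Same-numbered mice did not deviate together (correlations of 0.036, -0.314 and -0.158). Deviations were taken from means of only 3 mice, so these correlations cannot decide whether the numbers are a pairing. Halving the counts changed no member's call, Gbp10, Gbp8 and Gbp11 included, and the sham values of Gbp11 had a coefficient of variation of 86.7% between mice. At this depth no difference in Gbp2b could be detected.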
